A study of Mus musculus with 30 samples.

Results

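The 9 genes described here are the transcription factors Spi1, Irf8, Runx1, Maf, Mef2a, Mef2c, Cebpa and Cebpb and the receptor gene Csf1r. They were taken by name from a table of 47643 mouse genes because they set or mark the identity of microglia, and this choice was made with earlier results of these data known. RNA had been sequenced from microglia sorted by FACS from 3-month-old mice in which Cre, expressed from the Cx3cr1 gene of myeloid cells, removes floxed copies of Bin1. Homo mice were Bin1 flox/flox::Cx3Cr1-Cre+, Het mice carried 1 floxed and 1 wild-type copy of Bin1 with the same Cre, and WT littermates carried no Cre. The libraries came from 5 male WT, 6 male Het, 5 male Homo, 4 female WT, 5 female Het and 5 female Homo mice, 1 library a mouse, and each is named below by its group and by the sex and mouse number that end its title, as in M-0199. Because Cre replaces part of Cx3cr1 and was absent from all WT mice, loss of a first Bin1 copy, loss of a Cx3cr1 copy and Cre itself cannot be told apart. The comparisons address whether loss of Bin1 in microglia moves these genes, and whether males and females differ.

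Microglia arise from yolk sac progenitors under RUNX1, and the ETS factor PU.1, encoded by Spi1, is required for the lineage. PU.1 binds DNA together with partner factors, among them IRF8, MEF2 proteins, C/EBP proteins and MAF, and it drives Csf1r, whose protein is the receptor for the growth factors CSF1 and IL-34 on which adult microglia depend. CEBPA is known from myeloid differentiation and proliferation, and CEBPB from the inflammatory response of macrophages.

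All 9 genes were measured in all 30 libraries, in FPKM, a level scaled for transcript length and library size, and all passed the filter of a mean FPKM of at least 0.1 that left 16897 genes for testing. The sequencing depth of the libraries, relative to their median, lay between 0.669 and 1.41. The labelled cell type was met, since 12 of 12 microglia markers were present in every library, with a summed level of 20218 to 28278 FPKM. Bin1 averaged 258.3 FPKM in male WT, 119.7 FPKM in male Het and 49.7 FPKM in male Homo mice, and 253, 134 and 41.2 FPKM in the female groups in the same order. In 2 libraries labelled Het, male Het M-0199 with 51.8 FPKM and female Het F-0206 with 42.7 FPKM, Bin1 was as low as in Homo mice, and female Het F-0206 also had 13.9 FPKM of Cx3cr1. Results for Het mice are therefore given with and without them. Mouse numbers fall into an early range of M-0093 to F-0122 and a late range of M-0176 to M-0258, and the early range held 3 of 5 male Homo, 2 of 6 male Het and 1 of 4 female WT mice but 0 of 5 male WT mice. In sorted cells sequenced in bulk, fewer cells that express a gene and less of its RNA per cell cannot be told apart.

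Csf1r was by far the most abundant of the 9 genes. Its level, as the mean of the 6 group means, was 3274 FPKM. Irf8, whose protein is the interferon regulatory factor that pairs with PU.1, followed at 233 FPKM. The next 3 genes lay close together, with 195 FPKM for Mef2a, 193.4 FPKM for Mef2c and 191.98 FPKM for Spi1. Maf, a basic leucine zipper factor of resident macrophages, had 67.2 FPKM. Cebpb had 51.2 FPKM and Cebpa 47.0 FPKM. Runx1 was lowest, at 20.2 FPKM. In the distribution of the genes tested these levels ran from percentile 75.8 for Runx1 to percentile 99.9 for Csf1r.

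In this order 3 of 8 steps held without overlap over the 30 libraries. The lowest Csf1r value of 1927 FPKM was above the highest Irf8 value of 265 FPKM, with a median ratio of 14.0 within a library. The lowest Spi1 value of 154 FPKM was above the highest Maf value of 90.4 FPKM, with a median ratio of 2.86. The lowest Cebpa value of 32.2 FPKM was above the highest Runx1 value of 24.6 FPKM, with a median ratio of 2.34. The other neighbours crossed. Irf8 exceeded Mef2a in 26 of 30 libraries, Mef2a exceeded Mef2c in 17, Mef2c exceeded Spi1 in 13, Maf exceeded Cebpb in 27 and Cebpb exceeded Cebpa in 20. The 2 MEF2 genes were thus level with each other, with a median Mef2a to Mef2c ratio of 1.01.

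**Figure D1:**
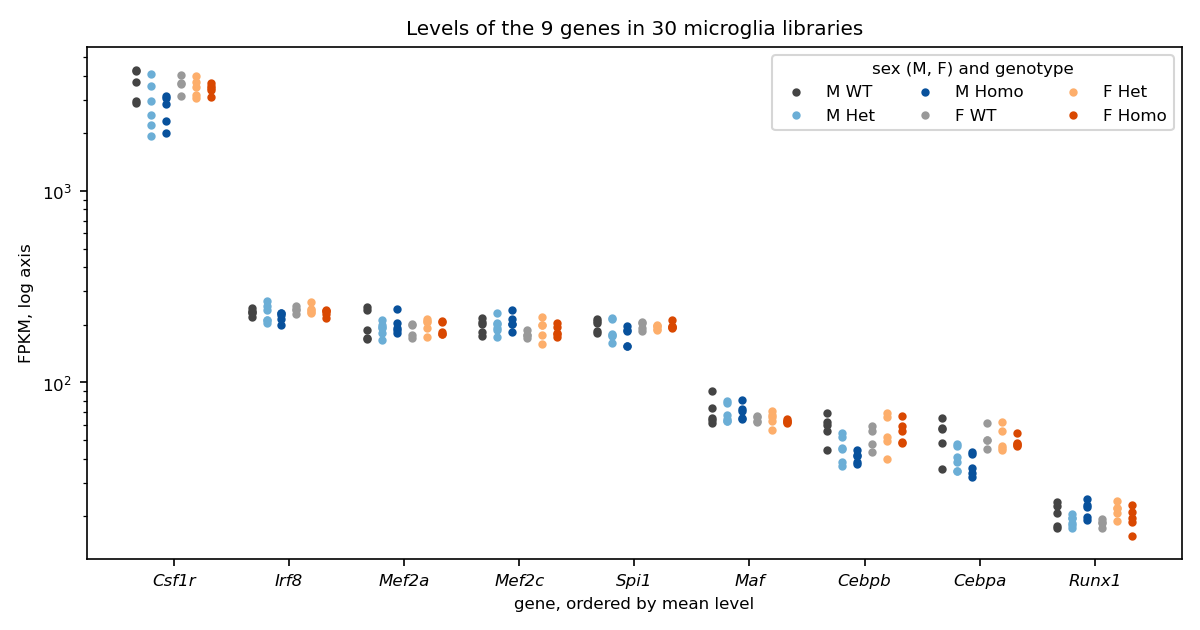
Level of each of the 9 genes in FPKM on a log axis, with 1 point per library and 6 groups side by side per gene. Csf1r lies between 1927 and 4265 FPKM, 5 genes from Irf8 to Maf lie between 56.5 and 265 FPKM, and Runx1 stays at or below 24.6 FPKM.

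The genes differed in how steady they were. The highest library exceeded the lowest by 1.33 times for Irf8 and 1.41 times for Spi1, the factors on which the lineage rests. For Csf1r the same ratio was 2.21, for Cebpa 2.02 and for Cebpb 1.89. The median coefficient of variation within a group was 4.64% for Irf8, 6.18% for Spi1, 14.6% for Csf1r, 13.9% for Cebpa and 14.9% for Cebpb. The receptor gene and the C/EBP pair were the most variable members, also among mice of 1 genotype and sex.

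The genes are spread over the genome. On GRCm38 with GENCODE M21 annotation, Spi1 (chr2:91082390-91115756) and Cebpb (chr2:167688915-167690418) share chromosome 2, Mef2a (chr7:67231163-67372858) and Cebpa (chr7:35119293-35121928) share chromosome 7, and Irf8 (chr8:120736358-120756694) and Maf (chr8:115682942-115707794) share chromosome 8. Mef2c (chr13:83504034-83667080) and Runx1 (chr16:92601466-92826149) are alone, and Csf1r lies on the chromosome of Bin1. Cebpa and Cebpb are single-exon genes of very high GC content, 62.6% and 67.2% of their longest transcript, which puts them at percentile 98.6 and 99.7 of the genes tested. Mef2c with 40.8% and Mef2a with 42.0% stand at the other end.

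The promoters of these 4 genes are shown because the 2 C/EBP genes were the members that changed, and the 2 MEF2 genes lie at the other end of GC content and differed from WT by -0.14 to 0.08 on the log2 scale in both sexes and genotypes. Each run holds the 250 bases upstream of the transcription start in RefSeq on GRCm38.p6, 5′ to 3′ on the strand of the gene. Capitals mark matches, on either strand, to the short motifs GAGGAA of PU.1 and other ETS factors, the paired GAAA motif of IRF factors, TGTGGT of RUNX factors, TGCTGAC of MAF factors, TTNCNNAA of C/EBP proteins, TATTTATA of MEF2 proteins, the TATA box TATAAA, which can share letters with the MEF2 motif, and TGACG, part of a cyclic AMP response element. The last pair of motifs was added after the sequences had been read.
Cebpb, chr2:167688665-167688914, plus strand: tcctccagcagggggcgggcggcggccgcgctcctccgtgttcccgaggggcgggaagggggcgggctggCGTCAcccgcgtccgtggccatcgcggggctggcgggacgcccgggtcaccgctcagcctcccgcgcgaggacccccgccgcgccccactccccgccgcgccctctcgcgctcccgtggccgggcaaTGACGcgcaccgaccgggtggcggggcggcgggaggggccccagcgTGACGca
Cebpa, chr7:35119043-35119292, plus strand: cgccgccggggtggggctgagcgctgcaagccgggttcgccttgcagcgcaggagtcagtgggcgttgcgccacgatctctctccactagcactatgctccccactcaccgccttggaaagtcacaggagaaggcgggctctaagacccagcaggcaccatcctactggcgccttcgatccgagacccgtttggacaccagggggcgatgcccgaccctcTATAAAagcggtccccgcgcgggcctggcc
Mef2a, chr7:67372859-67373108, minus strand: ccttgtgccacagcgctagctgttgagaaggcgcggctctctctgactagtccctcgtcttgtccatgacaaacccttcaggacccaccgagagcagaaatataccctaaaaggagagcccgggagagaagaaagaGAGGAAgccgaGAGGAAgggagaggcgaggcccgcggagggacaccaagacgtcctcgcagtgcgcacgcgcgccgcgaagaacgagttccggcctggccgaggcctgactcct
Mef2c, first of 3 starts, chr13:83503784-83504033, plus strand: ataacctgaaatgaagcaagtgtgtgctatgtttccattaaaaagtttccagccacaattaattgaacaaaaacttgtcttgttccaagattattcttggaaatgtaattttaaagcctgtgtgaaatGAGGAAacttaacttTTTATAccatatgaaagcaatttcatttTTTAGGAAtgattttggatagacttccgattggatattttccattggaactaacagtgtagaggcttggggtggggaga

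Neither C/EBP window held a match to any of the 6 motifs of lineage factors. Cebpb held 3 matches to TGACG, which begin 180, 53 and 7 bases before the start, and Cebpa held TATAAA from 30 to 25 bases before it. TGACG was found in 17.77% and TATAAA in 12.37% of 32851 promoter windows of the same length. Mef2a held GAGGAA at 2 places, 114 and 103 bases before the start. The first Mef2c window held GAGGAA up to 117 bases, the TATA box match TTTATA up to 102 bases and the C/EBP match TTTAGGAA up to 72 bases before the start. GAGGAA was found in 23.25% and the C/EBP motif in 36.85% of all windows, so these matches are common. The MEF2 motif was found in 1.562%, the IRF motif in 2.977%, the MAF motif in 3.811% and the RUNX motif in 14.05% of all windows. The table had entries for 6 of the 9 genes, Irf8 and Runx1 beside the 4 shown, and none for Spi1, Maf and Csf1r. GC content of the upstream window was 81.6% for Cebpb, percentile 99.3 of all windows, 66.4% for Cebpa, 61.6% for Mef2a and 33.6% for the first Mef2c window.

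In male Homo mice the 2 C/EBP genes fell, and no other member passed the test. The test was limma on log2 values over all 16897 genes, with Benjamini-Hochberg adjustment, and a gene passed at an adjusted p below 0.05. Of all genes tested, 2.82% passed in this comparison and 1.27% passed with lower values in Homo mice, against 2 of the 9 genes here. The median log2 fold change of the 9 genes was -0.18 and that of all genes 0.031, and 8 of the 9 genes had a negative value against 46.4% of all genes. This count depended on values near zero. Mef2c, at -0.0019, turned sign in 6 of 10 fits with 1 library left out. Without scaling Maf, Mef2a and Mef2c were positive, at 0.010, 0.0018 and 0.081. The values for all genes include low genes, and among genes averaging at least 1 FPKM the median was 8.2e-05.

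Cebpb was measured at 62.2, 59.8, 56.1, 44.6 and 69.4 FPKM in the male WT libraries M-0176, M-0177, M-0178, M-0202 and M-0258. In the male Homo libraries M-0093, M-0097, M-0109, M-0189 and M-0190 it was at 41.9, 41.5, 44.4, 38.4 and 37.4 FPKM. The 2 groups did not overlap, although the lowest WT library and the highest Homo library almost touched, and the Homo values were much closer to each other than the WT values. No overlap with lower values in Homo mice was seen for 1.37% of all genes tested. The means were 58.4 ± 9.13 FPKM in WT and 40.7 ± 2.83 FPKM in Homo mice (SD, n = 5 and 5). Cebpb fell by 0.59 on the log2 scale (SE 0.13, limma adjusted p = 0.0174), which is 1.51-fold lower. A 2-sided exact permutation test on the FPKM of this gene alone gave p = 0.00794, the smallest that 5 against 5 libraries allow. Without male Homo M-0093, male WT M-0176 or male WT M-0177 the limma adjusted p was 0.0576, 0.0516 and 0.0514.

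Cebpa was measured at 56.9, 48.5, 57.5, 35.4 and 65.1 FPKM in the male WT libraries in the same order of mouse numbers. In the male Homo libraries it was at 33.7, 36.0, 32.2, 43.3 and 42.2 FPKM. The groups overlapped because male WT M-0202, which was also the lowest WT library for Cebpb, lay among the Homo values. The means were 52.7 ± 11.3 FPKM and 37.5 ± 5.04 FPKM (SD, n = 5 and 5). Cebpa fell by 0.55 on the log2 scale (SE 0.16, limma adjusted p = 0.0477), 1.47-fold lower, at the edge of the threshold. Leaving out 1 library ended the call in 7 of 10 cases. The adjusted p was then 0.149, 0.0886 and 0.148 without male Homo M-0093, M-0097 and M-0109, and 0.110, 0.0918, 0.110 and 0.101 without male WT M-0176, M-0177, M-0178 and M-0258.

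Csf1r, the receptor, was lower in male Homo mice by a similar amount but with a wide spread, and did not pass. The male WT libraries had 3690.5, 4265, 4252, 2933 and 2864 FPKM. The male Homo libraries had 2313, 2838, 2005, 3145 and 3054 FPKM. The 2 late numbered Homo mice lay inside the WT range and the 3 early numbered ones below it. The log2 difference was -0.51 (SE 0.22, limma adjusted p = 0.156), with a 95% interval of -0.95 to -0.07.

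Spi1, the PU.1 gene, showed the same arrangement at a smaller size. It was at 209, 204, 185, 182 and 215 FPKM in male WT and at 155, 185, 154, 198 and 188 FPKM in male Homo libraries. Only the early numbered M-0093 and M-0109 lay below the WT range. The log2 difference was -0.26 (SE 0.11, limma adjusted p = 0.163). Irf8 differed by -0.18 (limma adjusted p = 0.291), with 2 of 5 Homo libraries below the WT range. The 4 remaining factors were near zero: Mef2a at -0.08, Maf at -0.07, Mef2c at -0.0019 and Runx1 at 0.0034 on the log2 scale, with 95% intervals that together span -0.32 to 0.23. For Mef2c the interval of -0.17 to 0.17 corresponds to 0.889 to 1.12 times the WT level.

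**Figure D2:**
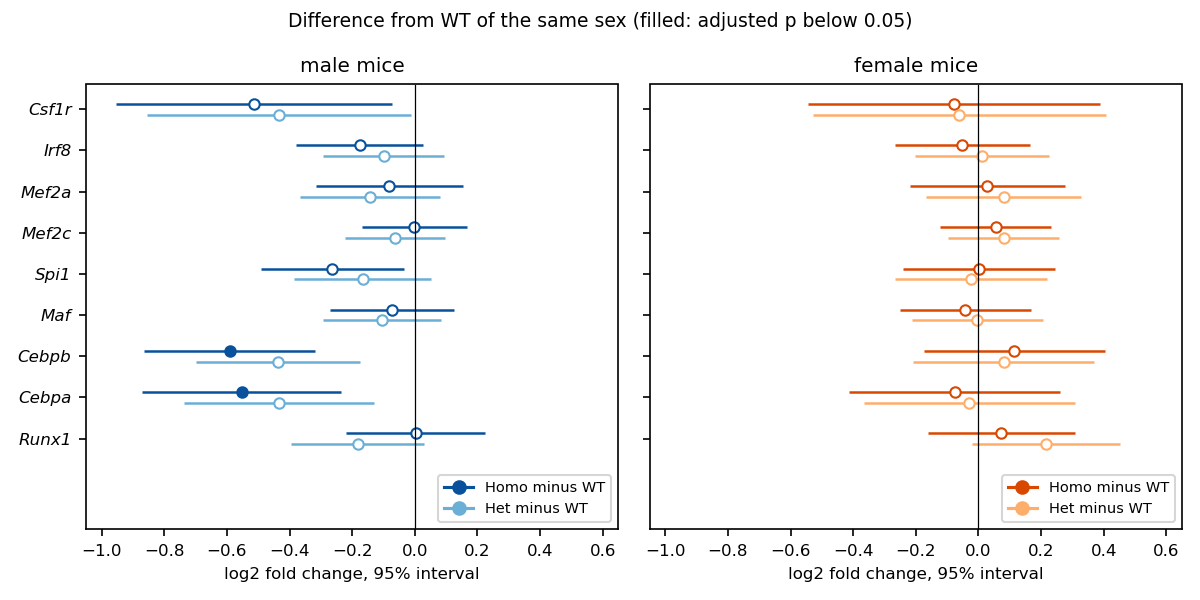
Log2 fold change of each gene in Homo and Het mice against WT of the same sex, with males on the left and females on the right, and lines for 95% intervals. Filled points, Cebpb at -0.59 and Cebpa at -0.55 in male Homo mice, passed the test; all other points are open.

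Male Het mice, compared with the same WT libraries, had 0 members past the test, while 0.172% of all genes passed by limma. At an unadjusted p below 0.05 there were 3 members, Cebpa, Cebpb and Csf1r, against 14.2% of all genes. Cebpb ran from 36.7 FPKM through a median of 45.2 FPKM to 54.7 FPKM in the 6 libraries, and Cebpa from 34.5 FPKM through 39.6 FPKM to 48.0 FPKM. Both ranges overlapped those of WT, with 2 of 6 libraries below the lowest WT value for each gene. The log2 differences were -0.44 for Cebpb (SE 0.13, limma adjusted p = 0.163) and -0.43 for Cebpa (SE 0.15, limma adjusted p = 0.231). Csf1r ran from 1927 FPKM through 2719 FPKM to 4063 FPKM, the widest range of any group, and differed by -0.43 (limma adjusted p = 0.344). All 9 values were negative, against 48.1% of all genes, though without scaling Mef2c was positive, at 0.010. With or without male Het M-0199 and female Het F-0206, 0 members passed. In male Het M-0199 itself Cebpa was at 48.0 FPKM and Cebpb at 52.1 FPKM, against 39.0 ± 5.06 and 44.1 ± 7.08 FPKM in the other 5 libraries (SD).

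Loss of the second Bin1 copy gave no difference past the test in the members. The Het groups here include male Het M-0199 and female Het F-0206, whose Bin1 was as low as in Homo mice. Leaving out either of them also left 0 members past the test. Between male Homo and male Het mice 0 of 9 genes passed the limma test, as did 0% of all genes tested, and 0 of 9 members had an unadjusted p below 0.05, against 3.85% of all genes. Cebpb differed by -0.15 (95% interval -0.42 to 0.11) and Cebpa by -0.12 (95% interval -0.42 to 0.18). Between female Homo and female Het mice 0 of 9 genes passed, against 0.0118% of all genes, 0 of 9 had an unadjusted p below 0.05, against 2.06%, and the log2 differences lay between -0.14 and 0.03.

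In females no member passed in either genotype. For Homo against WT 0 of 9 genes passed, against 0.071% of all genes tested by limma, and 0 of 9 had an unadjusted p below 0.05, against 3.49% of all genes. The log2 differences lay between -0.08 for Csf1r and 0.11 for Cebpb. Cebpb was at 47.5, 55.7, 59.2 and 43.3 FPKM in the female WT libraries F-0122, F-0192, F-0200 and F-0207. In the female Homo libraries F-0193, F-0201, F-0228, F-0234 and F-0238 it was at 48.1, 49.1, 55.7, 59.2 and 67.1 FPKM. The Homo values started within the WT range and 1 of them exceeded it. The 95% interval of the difference was -0.17 to 0.40, so a fall of the size seen in males lay outside it. Cebpa was at 44.8, 61.2, 49.9 and 50.1 FPKM in female WT and at 48.3, 47.7, 46.9, 54.2 and 46.8 FPKM in female Homo libraries. Every Homo value lay within the WT range, and the difference was -0.08 with a 95% interval of -0.41 to 0.26. Csf1r had 3611 ± 356 FPKM in female WT and 3423 ± 215 FPKM in female Homo mice (SD, n = 4 and 5), and the interval of the log2 difference, -0.54 to 0.39, does not set it apart from the male value.

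For female Het against WT 0 of 9 genes passed by limma, against 0.136% of all genes, and 0 of 9 had an unadjusted p below 0.05, against 3.95%. Without F-0206 the number past the test was also 0. The largest value was that of Runx1, at 18.4, 19.5, 18.7 and 17.4 FPKM in WT and at 22.0, 18.9, 23.9, 22.2 and 20.9 FPKM in the Het libraries F-0205, F-0206, F-0208, F-0220 and F-0257. The Het library within the WT range was F-0206, the one whose Bin1 level was that of Homo mice. The log2 difference was 0.21 (SE 0.12, limma adjusted p = 1), and the 2-sided exact permutation test on FPKM gave p = 0.0317. In the same library Irf8 was at 264 FPKM, above the other 4 at 237 ± 5.599 FPKM, and Mef2c was at 159 FPKM, below the other 4 at 198.7 ± 17.6 FPKM (SD).

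**Figure D3:**
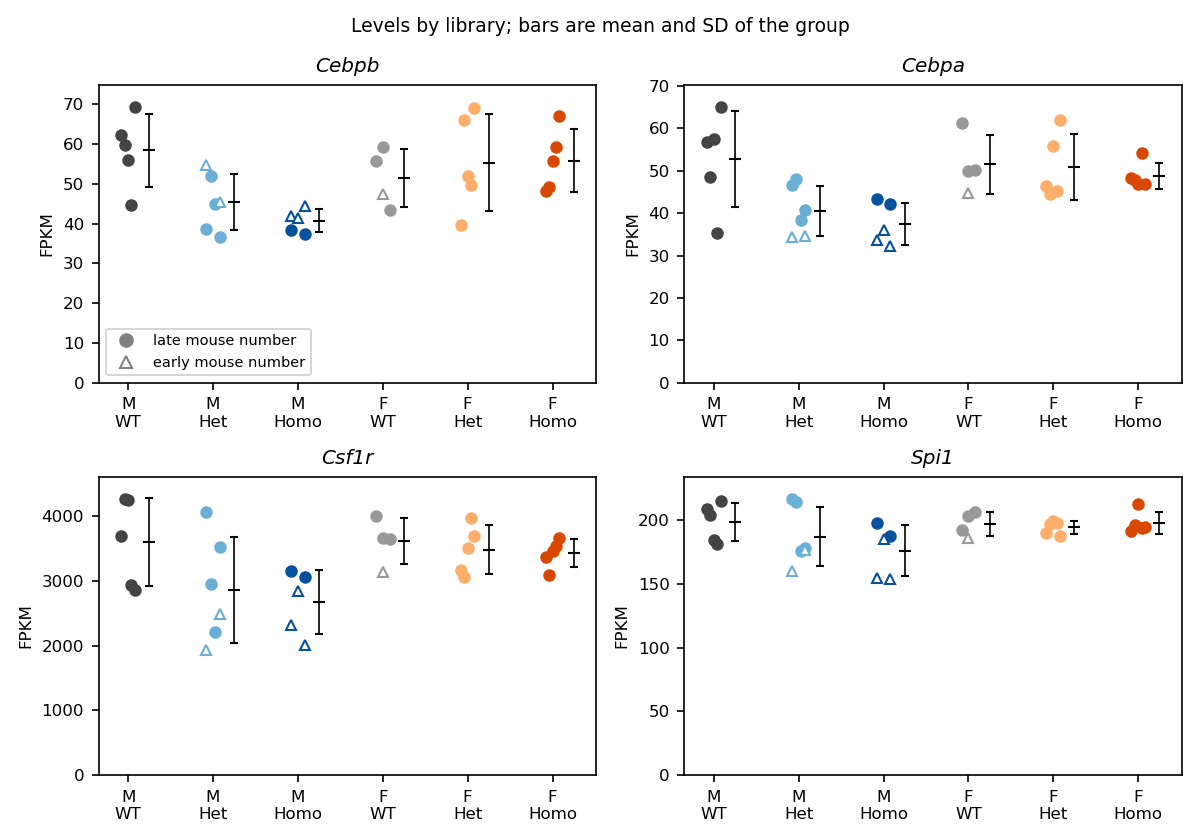
FPKM of Cebpb, Cebpa, Csf1r and Spi1 in each library of the 6 groups, with filled circles for late and open triangles for early mouse numbers and black bars for the mean and SD of the group. In male Homo mice Cebpb is low in all 5 libraries, at 37.4 to 44.4 FPKM, whereas Csf1r and Spi1 are lowest in early numbered mice.

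The difference between the sexes was itself tested. For Homo against WT, male minus female, the log2 term was -0.71 for Cebpb (SE 0.19, limma adjusted p = 0.495, and 0.00108 before adjustment). For Cebpa it was -0.48 (SE 0.23, limma adjusted p = 0.534, and 0.0433 before adjustment). No gene of the 16897 passed this test after adjustment (0%), while 9.29% had an unadjusted p below 0.05. For Het against WT the term was -0.52 for Cebpb (limma adjusted p = 0.860, and 0.0111 before adjustment) and -0.40 for Runx1 (limma adjusted p = 0.860, and 0.0158 before adjustment), again with 0% of genes past the test and 4.53% at an unadjusted p below 0.05. A difference between the sexes in these genes was therefore not shown. Among WT mice 0 of 9 genes differed between males and females, against 0.0473% of all genes by limma, and 0 of 9 had an unadjusted p below 0.05, against 2.91%.

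Cebpa was also lower in male Cre carriers with early mouse numbers than in those with late ones. With genotype held as a covariate and 5 early set against 6 late mice, 14.6% of all genes passed by limma, and 5.81% of all genes passed with lower values in early mice. The number past the adjusted threshold, 2459, depended on single libraries. It was 1 without male Het M-0100, 2 without male Het M-0108, 2 without male Homo M-0189 and 4826 without male Het M-0203. Without the filter on low values 121 genes passed. Before adjustment, the limma p was below 0.05 for 5719 genes with all libraries and for 4106 without male Het M-0100. Without scaling between libraries 2072 of 2481 genes that passed were higher in early mice, against 1477 of 2459 with scaling, and the median of all genes moved from 0.096 to 0.23 on the log2 scale. Of the 9 genes 1 passed. Cebpa was at 34.5 and 34.7 FPKM in early male Het and at 33.7, 36.0 and 32.2 FPKM in early male Homo mice. It was at 46.7, 48.0, 38.5 and 40.8 FPKM in late male Het and at 43.3 and 42.2 FPKM in late male Homo mice. The 2 ranges did not overlap, which held with lower values in early mice for 1.14% of all genes. Cebpa fell by 0.48 on the log2 scale (SE 0.10, limma adjusted p = 0.0229). The adjusted p was 0.102, 0.0582, 0.0508, 0.0766 and 0.0514 without male Het M-0100, male Het M-0108, male Homo M-0093, male Homo M-0189 and male Homo M-0190.

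Csf1r, Spi1 and Irf8 were lower in early mice without passing. Their log2 differences were -0.60 (limma adjusted p = 0.1004), -0.37 (limma adjusted p = 0.0535) and -0.30 (limma adjusted p = 0.0792). Without male Het M-0203 all 3 passed, with limma adjusted p of 0.0209, 0.0127 and 0.0137, and without male Homo M-0097 Spi1 passed, at 0.0327. Cebpb stood apart from them. It had 45.6 ± 5.38 FPKM in early and 41.3 ± 6.01 FPKM in late male Cre carriers (SD, n = 5 and 6), and the log2 difference of 0.05 had a 95% interval of -0.15 to 0.25.

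The comparison of male Homo and WT mice was therefore repeated with mouse number in view. Among late numbered mice alone, 2 Homo against 5 WT, Cebpb differed by -0.61, as much as with all mice, but with 2 libraries the limma adjusted p was 0.344. The Homo libraries M-0189 and M-0190 had the lowest Cebpb values of all 5. Cebpa differed by -0.28 (limma adjusted p = 0.792), Csf1r by -0.20 (limma adjusted p = 0.913) and Spi1 by -0.05 (limma adjusted p = 0.966). With the range of mouse numbers as a term in the fit of all mice the values were -0.59 for Cebpb (limma adjusted p = 0.123), -0.29 for Cebpa (limma adjusted p = 0.565), -0.19 for Csf1r and -0.07 for Spi1. Thus 0 members passed in either fit, and the value of Cebpb was kept while that of Cebpa, Csf1r and Spi1 shrank. In males the early range holds no WT mouse, so no value can be given within it.

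**Figure D4:**
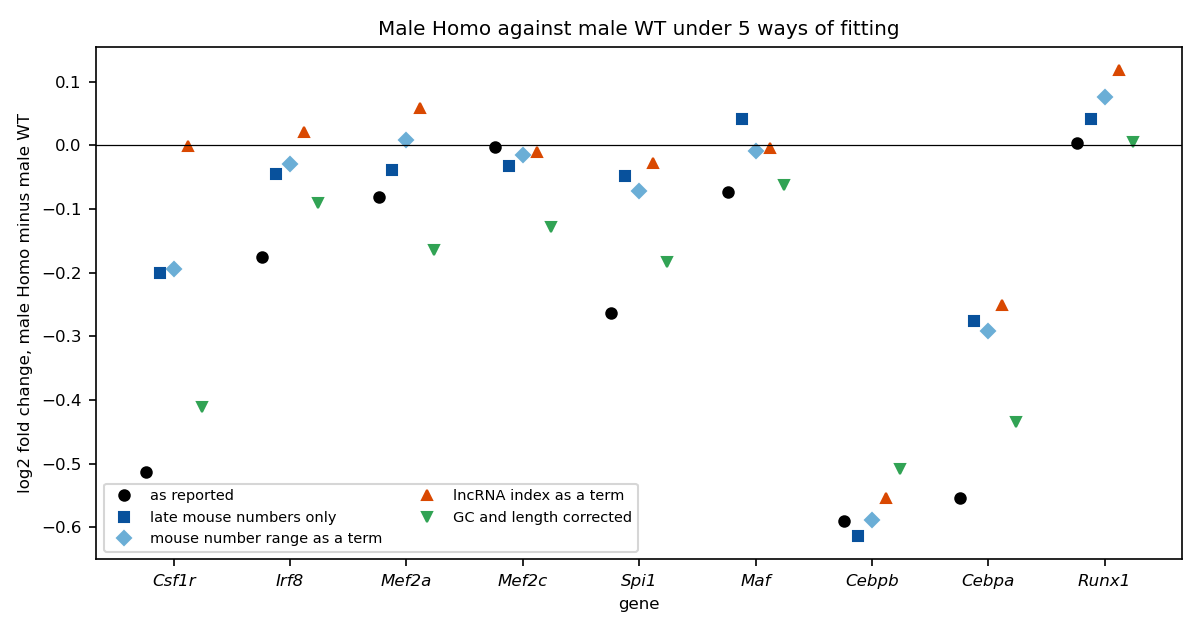
Log2 fold change of each gene in male Homo against male WT mice under 5 fits, as reported, with late mouse numbers only, with the mouse number range or the lncRNA index as a term, and after correction for GC content and length. Cebpb lies between -0.51 and -0.61 in all 5, whereas Csf1r runs from -0.51 to -0.0013.

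A measure of RNA composition moved with these values. The noncoding RNA Malat1, which is retained in the nucleus, was at 10732 ± 1804 FPKM in early and 4880.2 ± 1973 FPKM in late male Cre carriers (SD, n = 5 and 6). The lncRNA index subtracts the mean log2 level of 10266 protein-coding genes from that of 678 long noncoding genes, and it had its median at -1.76 in male Homo, -1.86 in male Het and -2.21 in male WT mice. With this index as a term, a choice made after the data were seen, the log2 difference of male Homo and WT mice was -0.0013 for Csf1r, -0.03 for Spi1, 0.02 for Irf8, -0.25 for Cebpa (limma adjusted p = 0.427) and -0.55 for Cebpb (limma adjusted p = 0.0835). After correction for GC content and transcript length, also chosen later, Cebpb was at -0.51 (limma adjusted p = 0.0308) and Cebpa at -0.43 (limma adjusted p = 0.0823).

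The relation to Malat1 was also seen from library to library. Over 30 libraries, on log2 levels as deviations from the group mean, Csf1r and Malat1 had a Pearson r of -0.93 and a Spearman rho of -0.92, and r was -0.90 without the 2 libraries farthest in Csf1r. Within the 24 late numbered libraries r was -0.94. For Cebpa r was -0.64 and rho -0.67, but r was -0.29 within late libraries. For Cebpb r was 0.015 and rho 0.0011. Permutation p-values adjusted over 49 relations were 7e-05 for r and 0.000163 for rho of Csf1r, 0.000784 and 0.000544 for Cebpa, and 0.958 and 0.996 for Cebpb. The smallest raw p that 100000 resamples can give is 1e-05. For all 49 relations the deviations were shuffled over all 30 libraries and not within groups. The spread differed between groups, with a coefficient of variation of Malat1 of 59.8% in male Het and 9.80% in female Homo mice. These permutation p-values are therefore approximate.

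**Figure D5:**
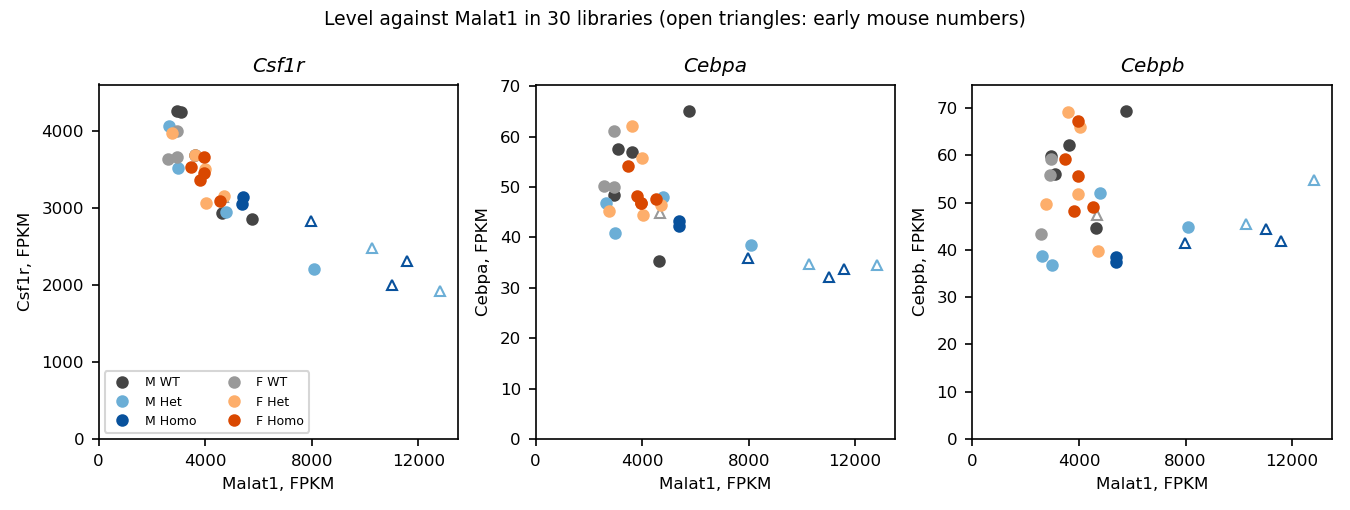
FPKM of Csf1r, Cebpa and Cebpb against FPKM of Malat1 in 30 libraries, coloured by group, with open triangles for early mouse numbers. Csf1r runs down from 4265 to 1927 FPKM as Malat1 rises, while Cebpb shows no such course.

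Members also varied with each other. Spi1 and Irf8, the partners on DNA, had a Pearson r of 0.89 and a Spearman rho of 0.85 over the 30 libraries (adjusted permutation p = 7e-05 and 0.000163), with r of 0.84 without the 2 libraries farthest in Spi1 and 0.80 within late libraries. Runx1 and Mef2a had an r of 0.75 and a rho of 0.77 (adjusted permutation p = 7e-05 and 0.000163), with 0.80 without the 2 farthest libraries and 0.77 within late libraries. Spi1 and its target Csf1r had an r of 0.80 and a rho of 0.73 (adjusted permutation p = 7e-05 and 0.000245), but within late libraries r was 0.58 and rho 0.27. Cebpa and Cebpb had an r of 0.38 and a rho of 0.27 (adjusted permutation p = 0.0927 and 0.259), with r of 0.29 without the 2 libraries farthest in Cebpa. Within late libraries their r was 0.54 and rho 0.41, near the values of Spi1 and Csf1r there. The C/EBP pair thus fell in the same comparison without a relation past the threshold over the 30 libraries, and the late values were not tested. Cebpa had an r of 0.73 with Spi1 and 0.69 with Csf1r (adjusted permutation p = 0.000123 and 0.000163). Within late libraries these values were 0.50 and 0.47. With Mef2a and Mef2c its r was 0.33 and 0.31 (adjusted permutation p = 0.148 and 0.167). Cebpb had an r of 0.15 with Spi1 and 0.062 with Csf1r (adjusted permutation p = 0.537 and 0.824). These libraries share their composition, including the Malat1 level, so such values describe libraries and not control of 1 gene by another.

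Over 11622 genes averaging 1 FPKM or more, likeness to each member was taken as Pearson r of the same deviations over 30 libraries. Genes among the 3 most like Csf1r were Adgrg1 and Pip4k2a, with r of 0.992 and 0.984. The 3 most like Spi1 were Arpc2, Tkt and Gnas, between 0.948 and 0.951, and for Irf8 Abhd12, Tcn2 and Calr, between 0.935 and 0.937. For Mef2a they were Qk, Abca1 and Nfatc3, between 0.906 and 0.920. For Cebpa they were Cmip, Eif3c and B4galt6, between 0.884 and 0.894. For Cebpb they were Trim11, Prr13 and Nfkbia, between 0.757 and 0.808, the last being the inhibitor of NF-kB that NF-kB itself induces. Runx1 had Traf3 at 0.859, Maf had Pabpc1 at 0.835 and Mef2c had Myo18b at 0.789 as the first gene. The values for Csf1r and Spi1 were high and those for Cebpb and Mef2c low.

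Relatives of the members were read from a list of 29 ETS, IRF, RUNX and CBF, MAF, MEF2 and C/EBP genes, of which 25 were tested. In male Homo against WT mice 0 of 25 passed, with a median log2 fold change of -0.14 beside 0.031 for all genes, and 0 of 25 passed in male Het, female Homo and female Het mice. Of all genes 2.82%, 0.172%, 0.071% and 0.136% passed by limma in these comparisons, in this order. In male Homo mice 1.27% of all genes passed with lower values. A relative of the changed genes and one of the MEF2 members were picked after their values were seen. Cebpd had 51.3 ± 7.56 FPKM in male WT and 48.5 ± 4.11 FPKM in male Homo mice, and Mef2d 25.0 ± 3.82 and 23.9 ± 2.80 FPKM (SD, n = 5 and 5). Of 25 other haematopoietic and microglial factors, 22 were tested. In male Homo mice 1 rose, Bhlhe41, a repressor of the basic helix-loop-helix class, by 0.75 on the log2 scale (limma adjusted p = 0.0255). In the same mice 1 fell, Nfil3, a basic leucine zipper factor, by 0.99 (limma adjusted p = 0.0225), from 6.03 ± 0.920 to 3.18 ± 0.613 FPKM (SD). In male Het and in both female comparisons 0 of 22 passed. Bhlhe41 was also higher in early than in late male Cre carriers, by 0.54 (limma adjusted p = 0.0385). The number of genes past the adjusted threshold in that comparison depended on single libraries.

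Around the receptor, 22 of 23 genes for CSF1R ligands and signalling were tested, and 0 passed in male Homo, male Het, female Homo or female Het mice against WT. Of all genes 2.82%, 0.172%, 0.071% and 0.136% passed by limma in these comparisons, in this order. The ligand gene Csf1, picked after its values were seen, was at 7.05 ± 1.13 FPKM in male WT and 10.1 ± 1.49 FPKM in male Homo mice, and at 7.42 ± 0.795 FPKM in female WT and 12.04 ± 2.11 FPKM in female Homo mice (SD). The log2 differences were 0.43 (limma adjusted p = 0.192) and 0.68 (limma adjusted p = 0.658), without passing in either sex. The other ligand gene, Il34, which neurons are known to make, was listed at or below 0.496 FPKM in every library. Of 9 tested genes for related myeloid cytokine receptors 0 passed in the 4 comparisons with WT. In early against late males 1 of the 22 CSF1R genes rose and 4 fell, beside 14.6% of all genes past the test and 5.81% past it with lower values, among them Grb2, an adaptor between receptor and kinase cascade, by 0.55 (limma adjusted p = 0.0208). As for the whole comparison, 1 or 2 genes in all passed without male Het M-0100, male Het M-0108 or male Homo M-0189.

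Genes known as PU.1 targets were read beside Spi1 and Csf1r. Of 22 genes, which include Itgam and Ptprc whose proteins were used in the sort, 1 rose and 0 fell in male Homo mice. There 2.82% of all genes passed by limma, and 1.27% passed with lower values. The log2 value was negative for 16 of the 22, against 46.4% of all genes, and the median was -0.17 beside 0.031 for all genes. In limma 6 of the 22 had an unadjusted p below 0.05, beside 3798 of all 16897 genes. The gene that rose was Lyz2, the macrophage lysozyme, by 0.83 (SE 0.19, limma adjusted p = 0.0181), from 344 ± 104 to 653 ± 230 FPKM (SD, n = 5 and 5). It also rose in male Het mice, by 0.85 (limma adjusted p = 0.0379), against the same WT libraries. In female Homo and female Het mice 0 of 22 passed, beside 0.071% and 0.136% of all genes. In early against late males 18 of the 22 were negative, with a median of -0.33 beside 0.096 for all genes. There 1 of the 22 rose and 4 fell, beside 14.6% of all genes past the test and 5.81% past it with lower values, among them the Fc receptor gene Fcgr1 by 0.45 and the integrin gene Itgb2 by 0.57 (limma adjusted p = 0.0260 and 0.0379). At most 2 genes of the whole table passed there without male Het M-0100, male Het M-0108 or male Homo M-0189.

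Markers of other cells were read beside the C/EBP result, since neutrophils and monocytes also express Cebpa and Cebpb. Of 14 neutrophil markers, 10 were tested, and 5 fell in male Homo mice, among them Lcn2, Ngp and Chil3 (limma adjusted p = 0.00756, 0.00988 and 0.0164). In the same comparison 1.27% of all genes passed with lower values. Their summed level was 47.1 to 359.5 FPKM in male WT and 0.192 to 82.0 FPKM in male Homo libraries. The log2 value was negative for all 10, with a median of -4.50. S100a8, a protein gene of mature neutrophils, was listed at 0 in 5 of 30 libraries, with a median of 7.31 FPKM and a highest value of 148.8 FPKM, and S100a9, Ngp and Ltf were at 0 in 6, 6 and 5 libraries. Ly6g was at 0 in 24 libraries, and Mpo and Elane, which mark granulocyte precursors, were at 0 in 27 and 29. Within male WT the library with the highest sum, M-0202 with 359.5 FPKM, had the lowest Cebpb and Cebpa of the group. In male Het M-0100, male Homo M-0109 and female Het F-0257 the highest sum of the group went with its highest Cebpb. These Cebpb values were 54.7, 44.4 and 69.1 FPKM. Cebpa was the lowest of its group in M-0100 and M-0109 and the highest in F-0257. In female WT and female Homo mice the libraries with the highest sum, F-0192 and F-0228, had neither the highest nor the lowest Cebpb. Over 30 libraries, as deviations from group means, Cebpb and the log2 sum had an r of 0.18 and a rho of 0.30 (adjusted permutation p = 0.459 and 0.205), with r of 0.42 without the 2 libraries farthest in Cebpb and 0.17 within late libraries. Cebpa and the same sum had an r of -0.24 and a rho of -0.32 (adjusted permutation p = 0.318 and 0.168), with r of 0.15 within late libraries. Of 10 border macrophage markers 1 fell, Clec4n, but all 10 were negative in male Homo mice, with a median of -0.80 beside 0.031 for all genes. Before adjustment the limma p was below 0.05 for 6 of them, beside 3798 of all 16897 genes tested. Their sum was 156 to 198.67 FPKM in male WT and 121 to 260 FPKM in male Homo libraries, and most of it was Stab1, at 96.5 to 222 FPKM over the 30 libraries. With this log2 sum Cebpb had an r of 0.33 and a rho of 0.38 (adjusted permutation p = 0.148 and 0.0852), with r of 0.36 without the 2 libraries farthest in Cebpb and 0.40 within late libraries. For Cebpa r was -0.36 and rho -0.40 (adjusted permutation p = 0.115 and 0.0743), with r of -0.39 without the 2 libraries farthest in Cebpa and 0.097 within late libraries. Choroid plexus markers had 0 of 6 past the test, with 6 of 6 negative and a median of -2.23, and sums of 0.395 to 444 FPKM in male WT and 0.646 to 30.9 FPKM in male Homo libraries. Their part in the C/EBP result was not tested.

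Several members overlap genes on the other strand. How strand was handled in counting is not given in the sources used here, so it is not known whether reads in the shared bases were told apart. Cebpb shares 312 exonic bases with Tmem189, which had 34.5 FPKM. Csf1r shares 873 with Hmgxb3 at 7.33 FPKM, Maf 440 with Gm15655 at 4.83 FPKM and Mef2a 302 with Lysmd4 at 4.31 FPKM. Cebpa shares 51 with Gm45091 at 1.61 FPKM, and Runx1 106 with Gm26626 at 0.0516 FPKM. Tmem189 is thus the only partner whose level comes near that of the member.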

How the data were processed

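RNA of sorted CD11b+ CD45med microglia was sequenced by the authors. The filed sample protocol tells of cultured microglia instead, and the paper's account was taken. The authors aligned reads to mm10 with OSA4 on an Ensembl gene model, estimated abundance with RSEM, and deposited FPKM. The 6 columns that match no listed sample were not used. Read counts were not analysed here. The paper states a general depth per sample, but the total of each library and with it the counting error are unknown. Relative depth was estimated from the smallest steps between low values. The paper names the SMARTer Ultra Low Input and Nextera XT kits, the filed protocol also a stranded TruSeq kit.

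The median ratio to the geometric mean over libraries, taken over genes averaging 1 FPKM or more, scaled each library, and a pseudocount of 0.1 was added before log2. Fold changes are on this scale and understate changes of low genes. R 4.3.3 and limma 3.58.1 fitted 6 groups with an intensity trend; early and late male Het and Homo mice were compared in a second fit with genotype as a term. p-values were adjusted over 16897 genes, and the spread is that between mice. Checks on simulated data were run. Permutation tests used Python 3.11.15 and scipy 1.17.1.

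The 9 genes and all gene lists were chosen with earlier results of these data known. Named beside the members are up to 3 genes per list and comparison with the smallest adjusted p past 0.05, up to 3 per list of other cells, and the 3 genes most like each member. Some results that this rule would name are not reported here. Further lists held markers of monocytes, dendritic cells, lymphocytes, neurons, astrocytes, oligodendrocytes and endothelium, genes of the dissociation response and nuclear RNAs. In male Homo mice 1 of 14 dissociation genes (Hspa1b) and 1 of 6 oligodendrocyte genes (Cnp) fell, and 0 of the others passed. Of all genes 2.82% passed there, and 1.27% with lower values. Annotation came from GENCODE M21, promoters from RefSeq. Alternatives changed the pseudocount, filter, scaling, weights, samples and covariates.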

Additional observations from a re-analysis of the deposited data

Results flagged for a closer look

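Of 54 sets of 4 to 6 libraries, 9 genes in 6 groups, 2 held a library set far apart by Dixon's criterion, where chance marks about 1 set in 20. Spi1 in female Homo F-0228 was at 212.6 FPKM, while the other 4 libraries lay between 191.99 and 196.1 FPKM. Its gap was 0.799 of the range of the group, above the critical value of 0.71. Cebpa in female Homo F-0234 was at 54.15 FPKM, while the other 4 lay between 46.77 and 48.29 FPKM, a gap of 0.794 of the range. Relative to the median library, F-0228 had a depth of 0.855, the lowest of the female Homo group and of all female libraries. F-0234 had 1.01, the highest of the female Homo group. No member passed the test of a difference between the sexes.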

How the results depend on the processing

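For male Homo against WT the number of the 9 genes past the test was 2 and became 1 with a pseudocount of 0.01, without a filter, without scaling or with the GC and length correction. It became 0 with a fit of only the groups compared, with the mouse number range or the lncRNA index as a term, and with late numbered mice only. Leaving out 1 library gave 0 to 2. Over 12 settings Cebpb passed in 8 and Cebpa in 4, with limma adjusted p of 0.0120 to 0.344 and 0.0248 to 0.792, and both values stayed negative. For early against late males 1 of 9 genes passed, 2 with a minimum mean of 1 FPKM or with the GC and length correction, 0 without a filter, 4 with array weights, and 0 to 4 with 1 library left out. All genes past that test numbered 2459, and 121 without a filter, 5112 with array weights, and 1 to 4826 with 1 library left out, with 1, 2, 971, 959, 4826 and 522 without male Het M-0100, M-0108, M-0197, M-0199, M-0203 and M-0210 and 407, 858, 2 and 468 without male Homo M-0093, M-0109, M-0189 and M-0190. The number of the 9 genes past the test stayed at 0 in all other comparisons.

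All genes past the test numbered 477 in male Homo mice, and 274 without a filter, 913 with array weights, 46 with only the groups compared, 40 with the mouse number range and 98 with the lncRNA index as a term, 10 with late mice only, and 88 to 1374 with 1 library left out. It was 88, 195, 117 and 1374 without male Homo M-0093, M-0097, M-0109 and M-0189, and 154, 127, 182 and 978 without male WT M-0176, M-0177, M-0178 and M-0202. In male Het mice 29 became 15 with array weights, 4 with only the groups compared, 18 with the mouse number range as a term, 12 with late mice only, and 12 to 64 with 1 library left out, with 17, 19, 63 and 17 without male Het M-0100, M-0108, M-0197 and M-0203 and 17, 12, 64 and 61 without male WT M-0177, M-0178, M-0202 and M-0258. In female Homo mice 12 became 40 with array weights, 23 with only the groups compared, 28 with the lncRNA index, and 7 to 11 with 1 library left out, 7 being without female Homo F-0228. In female Het mice 23 became 75 with array weights, 6 with only the groups compared, 12 with late mice only, 60 with the lncRNA index, 9 without female Het F-0206 and male Het M-0199 together, and 9 to 33 with 1 library left out, with 9 and 12 without female Het F-0206 and F-0220 and 13, 11, 11 and 13 without female WT F-0122, F-0192, F-0200 and F-0207. The cause was not tested.

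Members with small differences changed sign in 75 values under other settings and in 62 with 1 library left out, none of them past the test, and no turned value exceeded 0.11 in size. With the GC and length correction, the sign turned for Spi1 (-0.038) in female Homo against WT, for Maf (-0.0090), Mef2a (-0.031) and Mef2c (-0.060) in male Homo against Het, for Spi1 (-0.010), Maf (0.0014), Csf1r (0.0028), Mef2c (0.029) and Cebpb (-0.034) in female Homo against Het, for Spi1 (-0.017) and Cebpa (-0.030) in WT males against WT females and for Mef2c (-0.060) and Cebpb (-0.041) in early against late males. With array weights, the sign turned for Spi1 (-0.013) in female Homo against WT, for Irf8 (-0.0028) in female Het against WT, for Maf (0.0023) in the sex by Homo term and for Csf1r (0.020) in WT males against WT females. With ratios of mean FPKM as deposited, the sign turned for Maf (0.00062) and Mef2c (0.082) in male Homo against WT, for Mef2c (0.011) in male Het against WT and for Maf (0.0052) in female Het against WT. With late numbered mice only, the sign turned for Maf (0.042) in male Homo against WT, for Irf8 (0.027) in male Het against WT and for Spi1 (-0.039) and Mef2a (-0.029) in female Homo against WT. With the lncRNA index as a term, the sign turned for Irf8 (0.021) and Mef2a (0.060) in male Homo against WT, for Irf8 (0.030) in male Het against WT, for Csf1r (0.010) in female Homo against WT, for Maf (0.0013) in female Het against WT, for Csf1r (0.094) in male Homo against Het, for Csf1r (0.034) in female Homo against Het, for Irf8 (0.039), Runx1 (0.025), Maf (0.026) and Mef2a (0.0073) in the sex by Homo term, for Irf8 (0.0055) in the sex by Het term and for Irf8 (0.00066) and Csf1r (0.085) in WT males against WT females. With the mouse number range as a term, the sign turned for Mef2a (0.0081) in male Homo against WT, for Spi1 (-0.079) and Mef2a (-0.0092) in female Homo against WT, for Irf8 (-0.050) in female Het against WT, for Csf1r (0.063) in male Homo against Het, for Spi1 (0.0075), Irf8 (0.082), Runx1 (0.032), Maf (0.059), Csf1r (0.017) and Mef2a (0.017) in the sex by Homo term, for Spi1 (0.044) and Irf8 (0.031) in the sex by Het term and for Spi1 (-0.078) and Cebpa (-0.11) in WT males against WT females. Without scaling, the sign turned for Maf (0.010), Mef2a (0.0018) and Mef2c (0.081) in male Homo against WT, for Mef2c (0.010) in male Het against WT, for Maf (0.0017) in female Het against WT, for Runx1 (0.0093), Maf (0.049) and Mef2c (0.023) in the sex by Homo term and for Runx1 (0.0080), Maf (0.047) and Mef2a (0.022) in early against late males. With quantile normalization, the sign turned for Mef2c (0.061) in male Homo against WT, for Spi1 (-0.021) in female Homo against WT, for Maf (0.0016) in female Het against WT, for Mef2c (0.032) in the sex by Homo term and for Spi1 (-0.0089), Csf1r (0.043) and Cebpa (-0.0015) in WT males against WT females. Without female Het F-0206 and male Het M-0199 together, the sign turned for Irf8 (-0.016), Maf (0.049) and Cebpa (0.020) in female Het against WT. Leaving out 1 library at a time turned the sign for Runx1 (-0.063 to 0.068), Maf (-0.14 to 0.0066), Mef2a (-0.16 to 0.0054) and Mef2c (-0.052 to 0.025) in male Homo against WT, for Spi1 (-0.039 to 0.030), Mef2a (-0.029 to 0.070) and Cebpa (-0.15 to 0.018) in female Homo against WT, for Spi1 (-0.064 to 0.0051), Irf8 (-0.016 to 0.038), Maf (-0.052 to 0.049), Cebpa (-0.11 to 0.064) and Cebpb (-0.0055 to 0.20) in female Het against WT, for Maf (-0.039 to 0.086) and Csf1r (-0.21 to 0.057) in male Homo against Het, for Spi1 (-0.0072 to 0.048), Maf (-0.090 to 0.010), Csf1r (-0.066 to 0.049), Mef2c (-0.094 to 0.017), Cebpa (-0.096 to 0.028) and Cebpb (-0.085 to 0.12) in female Homo against Het, for Maf (-0.10 to 0.048) in the sex by Homo term and for Spi1 (-0.038 to 0.044), Csf1r (-0.11 to 0.061) and Cebpa (-0.073 to 0.15) in WT males against WT females.

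The lncRNA index, the GC and length correction and the fit without both Het libraries were chosen after seeing the data. No paired analysis was possible because mouse numbers are not shared between groups. FPKM give no read totals, so depth limits could not be stated for single values.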
